A study of Oryza sativa with 10 samples.

Results

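Rice seeds collected 72 hours after fertilization (HAF) held a set of 53 genes whose read level stood at least 1.7 times as high in both CRISPR lines as in any of the other 3 lines. They were chosen by that difference. Counts were turned into CPM, the reads of a gene per 1000000 reads of its library. A member had at least 1 CPM in each of the 5 libraries at 48 HAF and at least 10 CPM in both CRISPR libraries at 72 HAF. Its lower CRISPR value at 72 HAF was at least 1.7 times the highest of the other 3. Of 55801 features, 20691 had the 48 HAF level, and 13073 of these also had the 72 HAF level. The 53 members are 0.405% of those 13073 genes, and 13.7% of them had both CRISPR libraries above the other 3 by any margin.

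The lines were CR78 (Cr78_8.22.2, edited by CRISPR at MADS78), CR79 (Cr79_11.25.3, edited at MADS79), OE78 (OE78-8, labelled as overexpressing MADS78), OE79 (OE79-3, labelled as overexpressing MADS79) and wild type (WT). MADS78 and MADS79 encode type I MADS-box transcription factors, and the series is about how they act in the young rice seed. Each line gave 1 library of seeds without husk at 72 HAF and 1 at 48 HAF, so 10 libraries were compared and no line was repeated at a time. Each manipulation is 1 line, so an edit and any other difference of its line cannot be told apart. The labels do not state the cultivar, the sequence of either edit, the promoter of the transgenes or how many plants were pooled.

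Library totals ran from 12267337 reads in CR79 72 HAF to 18040600 in WT 72 HAF, and 29352 to 31278 genes had a read. The 50 genes with most reads took 15.1% of CR79 72 HAF and 6.80% to 9.28% of the other libraries. MADS78 had 2116 reads in OE78 72 HAF and at most 6 in any other library. The library labelled OE78 at 48 HAF held 6, the same as OE79 and near the 3 of WT, so its label was not borne out by its reads. MADS79 had 3 reads in CR78 and 0 in CR79 at 72 HAF, against 0 in OE78, 7 in OE79 and 20 in WT, so the library labelled OE79 at 72 HAF held fewer of them than WT and OE79 names the line only as labelled. At 48 HAF it had 36 and 34 reads in CR78 and CR79, against 22 in OE78, 39 in OE79 and 33 in WT. Neither overexpression label was thus clearly borne out by reads of its target at 48 HAF. CR78 48 HAF stood apart for HSP101, a chaperone that dissolves protein aggregates, at 146 CPM against 9.18 to 17.8 CPM in the other 9 libraries. The 8 listed heat shock genes did not all do so. At 48 HAF they summed to 1681 and 968 CPM in CR78 and CR79, against 839, 842 and 1367 CPM in OE78, OE79 and WT. LOC_Os08g39140 and LOC_Os03g60620 of that list were highest in WT, at 890 and 323 CPM against 757 and 259 CPM in CR78. The rest of the list was highest in CR78 at 48 HAF. HSFA2a had 130 CPM there, against 0.539 to 13.2 CPM in the other lines at that time. HSFA2c had 258 CPM against 27.3 to 122 CPM, and HSP17.9A had 53.7 CPM against 16.7 to 18.8 CPM. HSP17.4 had 70.5 CPM against 27.8 to 48.9 CPM, and HSP16.9A had 6.88 CPM against 2.81 to 6.69 CPM.

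In the cereal endosperm, sucrose delivered from the leaf is taken up by sucrose transporters and split by sucrose synthase. ADP-glucose pyrophosphorylase then makes ADP-glucose, which starch synthases join into chains and branching enzymes branch. In the days after fertilization the rice endosperm goes from free nuclei to walled cells and then begins to fill with starch and storage protein. Several members belong to this route, and the files give locus identifiers without names. Names below are those published for the identifier, printed where the RefSeq gene table holds the name within 2 Mb of an estimated place. That place was interpolated from the identifier's number and the positions of the other names under check. The check therefore rests on the other pairs and does not tell apart genes within that distance. Of the members, 10 carry such a name and the other 43 are given by identifier alone. The names TF1, TPP3, ADK-A and ROMT-17 were looked up after the values had been seen.

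Sucrose entry and cleavage were represented by a transporter and a synthase. SUS3 (LOC_Os07g42490), a sucrose synthase, had 3887 CPM in CR78 and 2081 CPM in CR79 at 72 HAF, against 923 CPM in OE78, 923 CPM in OE79 and 1217 CPM in WT. Both CRISPR libraries were above the other 3, with CR79 only just past the 1.7-fold limit. At 48 HAF SUS3 had 277 and 210 CPM in CR78 and CR79, against 193, 249 and 232 CPM in OE78, OE79 and WT, and the lines overlapped. SUT1 (LOC_Os03g07480), a sucrose-proton symporter, had 91.5 and 89.7 CPM at 72 HAF in CR78 and CR79, against 45.4, 38.8 and 46.0 CPM in OE78, OE79 and WT. The 2 CRISPR libraries lay close together, at 1.99 and 1.95 times WT, and no other line overlapped them. At 48 HAF SUT1 had 20.8 and 34.4 CPM in CR78 and CR79, against 25.3, 24.9 and 20.6 CPM in OE78, OE79 and WT, with CR79 the highest. Of the other named sucrose synthases, SUS4 had both CRISPR libraries above the other 3 at 72 HAF but under the 1.7-fold limit, at 78.6 and 57.5 CPM in CR78 and CR79, against 32.5, 41.2 and 43.0 CPM in OE78, OE79 and WT. SUS2, SUS1 and SUS6 overlapped between the lines. At 72 HAF SUS2 had 1005 and 587 CPM in CR78 and CR79, against 470, 561 and 621 CPM in OE78, OE79 and WT. Of the other named sugar transporters, SUT4 and SWEET4 were lower in both CRISPR lines at 72 HAF and the rest overlapped. SUT4 had 13.3 and 14.2 CPM in CR78 and CR79, against 18.9, 26.9 and 21.3 CPM in OE78, OE79 and WT. Among genes listed by identifier alone, LOC_Os02g10800 had 1784 and 958 CPM in CR78 and CR79, against 216, 236 and 352 CPM in OE78, OE79 and WT. It had at most 0.718 CPM at 48 HAF, so it could not be a member. LOC_Os08g08840 also had both CRISPR libraries above the other 3, at a ratio of 1.18. LOC_Os04g45290 had both below, and LOC_Os02g01590 overlapped. On the list of sucrose use and sugar transport, 19 genes had 1 CPM or more in some 72 HAF library. Both CRISPR libraries were above the other 3 in 6 of them and below in 4. Over all 24091 genes with that level, the shares were 14.3% and 21.7%.

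ADP-glucose and starch chains were represented by 4 members. AGPS2 (LOC_Os08g25734), a small subunit of ADP-glucose pyrophosphorylase, had 1205 and 781 CPM at 72 HAF in CR78 and CR79, against 364, 340 and 361 CPM in OE78, OE79 and WT. At 48 HAF it had 183 and 174 CPM in CR78 and CR79, against 220, 189 and 192 CPM in OE78, OE79 and WT, so the CRISPR lines were then the lowest of the 5. SSIIa (LOC_Os06g12450, listed by RefSeq as ALK), a soluble starch synthase, had 357 and 221 CPM at 72 HAF in CR78 and CR79, against 67.0, 62.5 and 105 CPM in OE78, OE79 and WT. Its 48 HAF levels were 2.83 and 2.47 CPM in CR78 and CR79, against 3.06, 2.99 and 5.46 CPM in OE78, OE79 and WT, with WT the highest. The remaining pair, LOC_Os01g44220 and LOC_Os02g32660, stand on the starch synthesis list by their published identifiers, but their list names are missing from the RefSeq table. LOC_Os01g44220 had 1036 and 645 CPM at 72 HAF in CR78 and CR79, against 195, 192 and 270 CPM in OE78, OE79 and WT. LOC_Os02g32660 had 1680 and 1163 CPM in CR78 and CR79, against 349, 337 and 574 CPM in OE78, OE79 and WT. For SSIIa, LOC_Os01g44220 and LOC_Os02g32660 the 5 lines kept 1 order at 72 HAF, with CR78 above CR79, WT next and both overexpression lines lowest.

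PPDKB (LOC_Os05g33570), a pyruvate phosphate dikinase that interconverts pyruvate and phosphoenolpyruvate, had the widest gap of all members. It had 1575 and 782 CPM at 72 HAF in CR78 and CR79, against 185, 195 and 197 CPM in OE78, OE79 and WT, a ratio of 3.96 between the lower CRISPR library and the highest other. The 3 other lines differed from each other by little, while CR78 stood at 2.01 times CR79. At 48 HAF it had 53.9 and 59.3 CPM in CR78 and CR79, against 56.6, 46.8 and 43.6 CPM in OE78, OE79 and WT. LOC_Os10g25130, on the grain filling list by its identifier alone, had 320 and 281 CPM at 72 HAF in CR78 and CR79, against 158, 138 and 135 CPM in OE78, OE79 and WT.

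**Figure D1:**
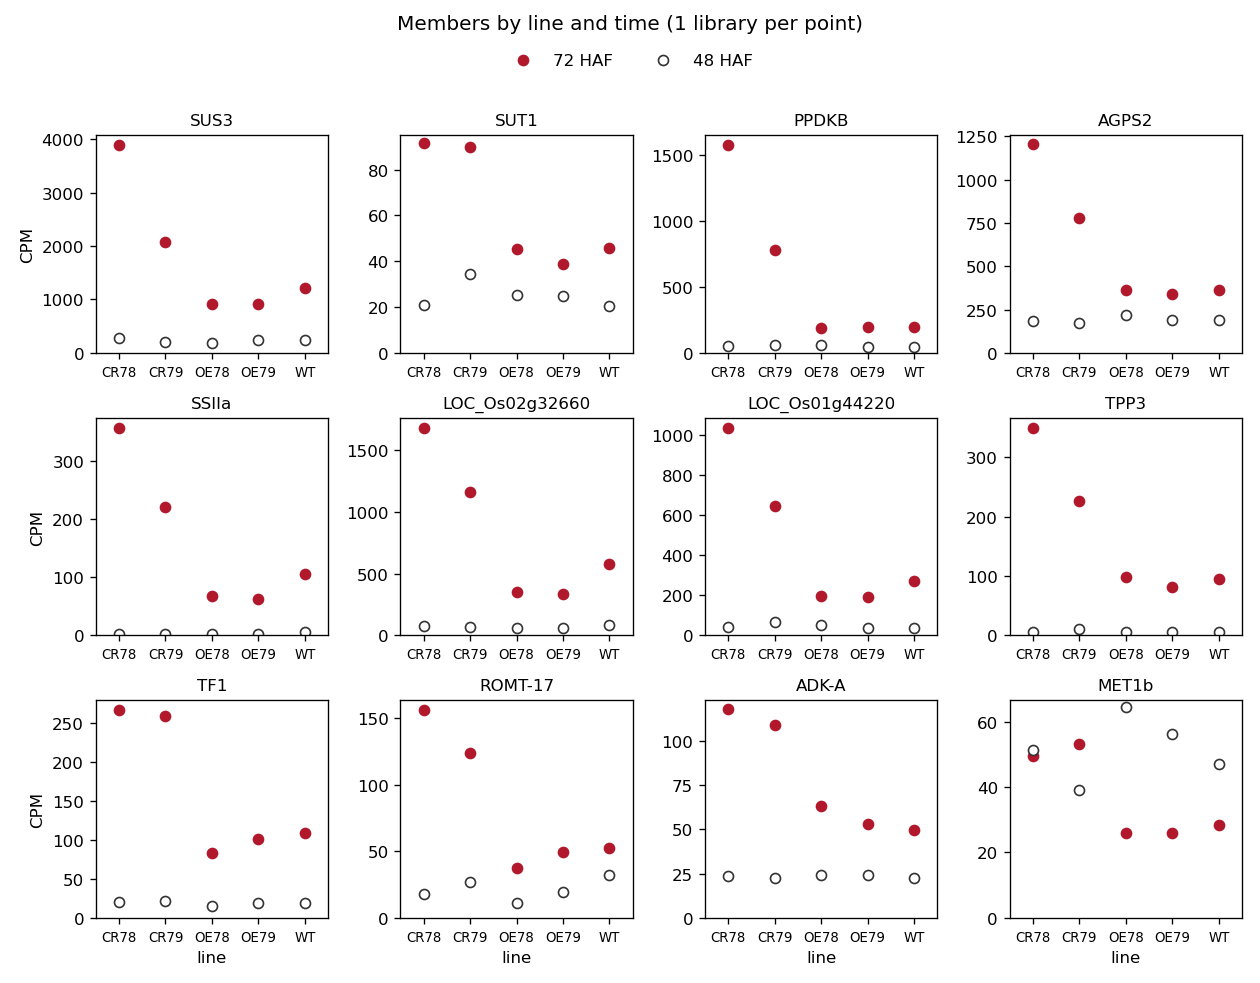
CPM of 12 members in each line (horizontal axis) at 72 HAF (filled) and 48 HAF (open), 1 library per point, with each vertical axis starting at 0. At 72 HAF CR78 and CR79 lie above OE78, OE79 and WT in all 12 panels, which the choice of members fixes. MET1b is the panel in which the open points of the other 3 lines lie above their filled points.

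Other named members act in signalling, transcription and metabolism. TPP3 (LOC_Os07g43160), a trehalose-6-phosphate phosphatase, had 349 and 226 CPM at 72 HAF in CR78 and CR79, against 98.9, 81.7 and 95.2 CPM in OE78, OE79 and WT. TF1 (LOC_Os01g57890), a homeobox transcription factor, had 267 and 259 CPM in CR78 and CR79, against 82.8, 101 and 109 CPM in OE78, OE79 and WT. The 2 CRISPR libraries were close for TF1 and further apart for TPP3. ROMT-17 (LOC_Os08g38910), a methyltransferase of a multigene family, had 156 and 124 CPM in CR78 and CR79, against 37.3, 49.6 and 52.2 CPM in OE78, OE79 and WT. How reads shared with other genes of that family were counted is not stated, so its level is uncertain. ADK-A (LOC_Os12g13380), an adenylate kinase, had 118 and 109 CPM in CR78 and CR79, against 63.0, 52.7 and 49.7 CPM in OE78, OE79 and WT, while all 5 lines lay between 22.5 and 24.2 CPM at 48 HAF.

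MET1b (LOC_Os07g08500), a DNA methyltransferase that maintains methylation after replication, followed another course. It had 49.5 and 53.1 CPM at 72 HAF in CR78 and CR79, against 25.8, 26.1 and 28.3 CPM in OE78, OE79 and WT. At 48 HAF it had 51.2 and 39.2 CPM in CR78 and CR79, against 64.6, 56.1 and 47.0 CPM in OE78, OE79 and WT. Its 72 HAF level was thus 0.968 times the 48 HAF level in CR78 and 1.35 times in CR79, against 0.400, 0.465 and 0.602 times in OE78, OE79 and WT. MET1a (LOC_Os03g58400), the other gene of this type on the chromatin list, had 5.07 and 5.79 CPM at 72 HAF in CR78 and CR79, against 4.87, 5.73 and 5.49 CPM in OE78, OE79 and WT. The lines overlapped for MET1a. Among 13 genes of DNA replication and cell cycle, none was a member, 1 had both CRISPR libraries above the other 3 at 72 HAF and 7 had both below. Among the 24091 genes with 1 CPM or more in some 72 HAF library, 14.3% had both above and 21.7% both below.

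Members without a name included some of the clearest separations. LOC_Os07g11120 had 42.0 and 25.4 CPM at 72 HAF in CR78 and CR79, against 5.19, 6.58 and 5.82 CPM in OE78, OE79 and WT, and 4.12 to 6.82 CPM in every line at 48 HAF. LOC_Os02g01010 had 579 and 566 CPM at 72 HAF in CR78 and CR79, against 157, 174 and 195 CPM in OE78, OE79 and WT. LOC_Os03g19270, LOC_Os03g06970, LOC_Os04g33600, LOC_Os04g17660 and LOC_Os03g48810 had ratios of the lower CRISPR library to the highest other of 3.06, 2.88, 2.88, 2.82 and 2.65. Among members with many reads, LOC_Os10g05750 had 710 and 599 CPM in CR78 and CR79, against 252, 204 and 336 CPM in OE78, OE79 and WT. LOC_Os01g55540 had 513 and 431 CPM in CR78 and CR79, against 249, 252 and 221 CPM in OE78, OE79 and WT. CPM is not scaled to gene length, so these levels rank reads and not transcripts between genes.

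Over the 53 members, the ratio to WT at 72 HAF had a median of 2.62 in CR78 (range 1.71 to 7.98) and 2.34 in CR79 (1.71 to 6.01), against 0.923 in OE78 (0.604 to 1.66) and 0.933 in OE79 (0.456 to 1.41). Over the 13073 genes that met the same minimum levels these medians were 0.965, 0.916, 0.978 and 0.971. The 3 members just inside the limit were SUS3 and LOC_Os01g15830, both at 1.71, and LOC_Os01g32380, at 1.7. The 3 genes just outside it were LOC_Os04g36770, LOC_Os10g39770 and LOC_Os05g06480, at 1.69, 1.68 and 1.67. CR78 was above CR79 at 72 HAF for 38 members and below it for 15, beside 60.5% of the 13073 genes above. LOC_Os01g60360 and PPDKB leaned most to CR78, at 2.27 and 2.01 times the CR79 level, and LOC_Os05g14740 and LOC_Os04g52700 most to CR79, at 0.592 and 0.593 times. Both overexpression lines lay below WT for 26 members and both above it for 13, against 42.1% and 31.1% of the 13073 genes.

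**Figure D2:**
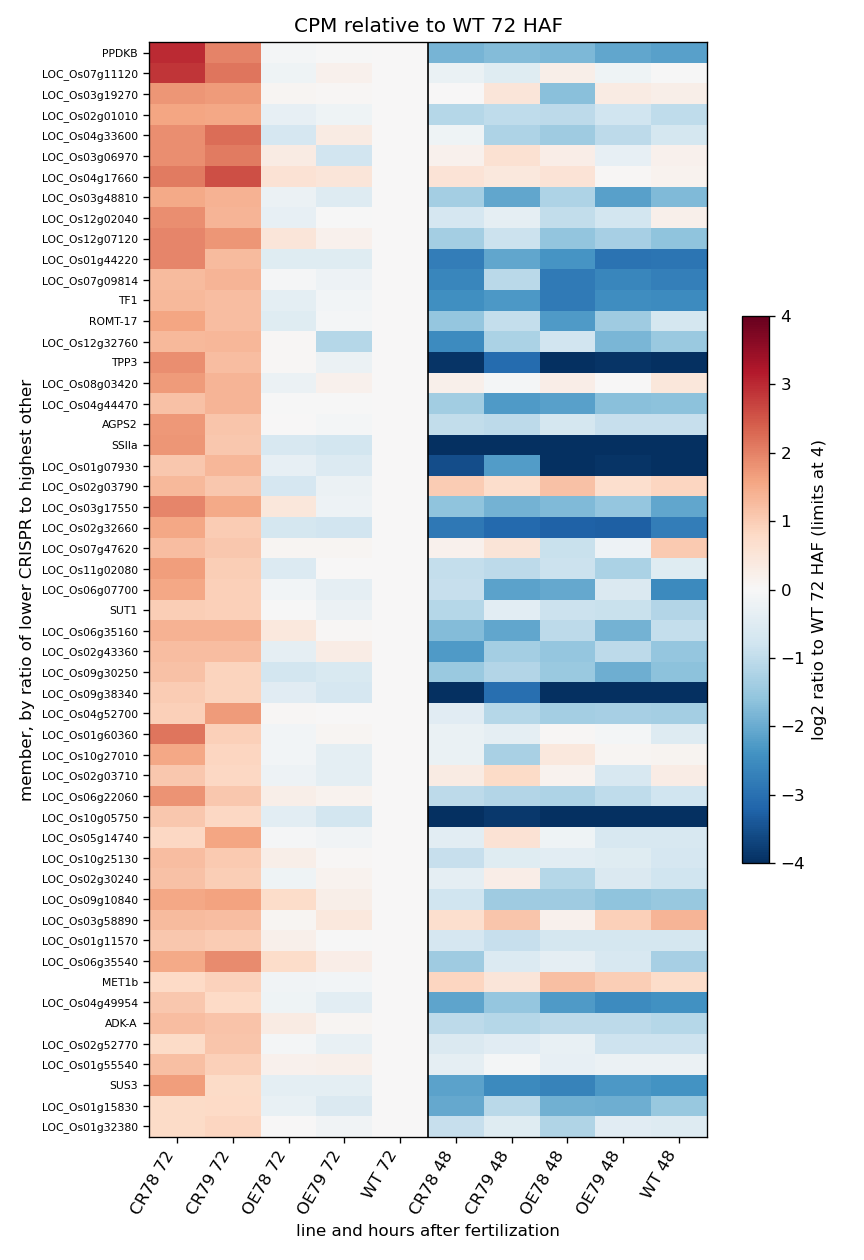
The log2 ratio of CPM to the WT 72 HAF library for each of the 53 members (rows) in the 10 libraries (columns, 72 HAF left of the line and 48 HAF right of it), with colours ending at 4 in each direction. CR78 72 and CR79 72 are red throughout by the choice of members, OE78 72 and OE79 72 are near white, and the 48 HAF columns run from dark blue for members such as LOC_Os10g05750, SSIIa and TPP3 to red for members such as LOC_Os03g58890 and MET1b.

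The contrast between lines at 48 HAF was not used to choose the members beyond a floor of 1 CPM. It was tested with edgeR's quasi-likelihood method, with CR78 and CR79 against OE78, OE79 and WT, 3 residual degrees of freedom and Benjamini-Hochberg adjustment over 23978 genes. The lines of a class stood as its replicates, so these p-values measure the spread between lines. All 53 members were tested and none passed adjusted p of 0.05 (0% of all tested genes passed in either direction, with 1946 at an unadjusted p under 0.05). DESeq2 called 74 of all tested genes and no member. Target reads clearly bore out neither overexpression label at 48 HAF, so each of these libraries was also left out. Without OE78, edgeR called none of the genes (1727 at an unadjusted p under 0.05), and the members' median log2 difference was 0.0367. Without OE79, edgeR called 2 genes and no member, and that median was 0.166. With all libraries, 2 members were higher and 1 was lower in the CRISPR lines at an unadjusted edgeR p under 0.05, against 4.32% and 3.79% of all tested genes. The fitted level was higher in the CRISPR lines for 35 members and lower for 18, beside 50.2% higher over all tested genes. The median log2 difference was 0.11 over the members and 0.0015 over all tested genes. A p that misses the threshold does not show that the lines were alike.

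In the 6 members with the smallest p at 48 HAF, the CR79 library was the one farthest from the rest. LOC_Os02g30240 had 174 and 273 reads in CR78 and CR79, against 105, 161 and 141 reads in OE78, OE79 and WT (log2 difference 0.83, SE 0.273, edgeR adjusted p = 0.596). LOC_Os01g07930 had 25 and 63 reads in CR78 and CR79, against 18, 21 and 20 reads in OE78, OE79 and WT (log2 difference 1.27, SE 0.464, edgeR adjusted p = 0.596). LOC_Os10g27010 was the one with a lower fitted level, at 7.39 and 3.68 CPM in CR78 and CR79, against 12.1, 9.58 and 9.73 CPM in OE78, OE79 and WT (log2 difference -0.88, SE 0.317, edgeR adjusted p = 0.596). LOC_Os07g09814, TPP3 and LOC_Os05g14740 had log2 differences of 1.09, 0.69 and 0.67, with SE 0.463, 0.297 and 0.295 and the same edgeR adjusted p of 0.596. For LOC_Os07g09814, CR79 had 6.85 CPM while CR78 and the other lines had 2.06 to 2.39 CPM. Without CR79, with CR78 as the lone CRISPR library and assumed to vary like the rest, the log2 differences of LOC_Os02g30240, LOC_Os01g07930 and LOC_Os10g27010 were 0.48, 0.47 and -0.46. Those of LOC_Os07g09814, TPP3 and LOC_Os05g14740 were 0.14, 0.22 and 0.09 (edgeR adjusted p = 0.994 for each of the 6). Without CR78 the 6 lay between 1.04 and 1.78, or at -1.46 for LOC_Os10g27010, with edgeR adjusted p from 0.111 to 0.137.

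**Figure D3:**
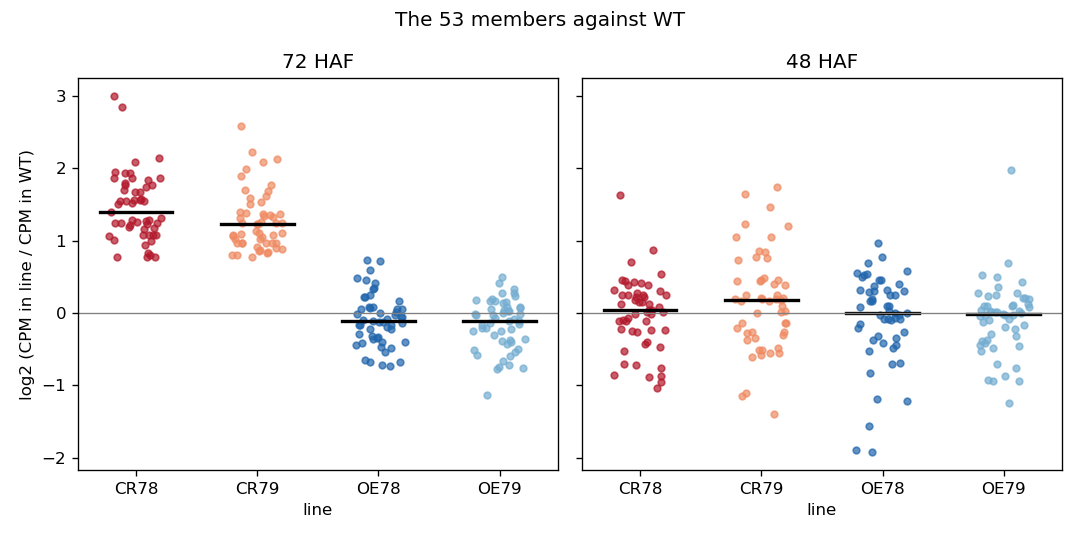
The log2 ratio of each line's CPM to WT at the same time, at 72 HAF (left) and 48 HAF (right), with 1 point per member and a bar at the median of the 53 members. At 72 HAF the CRISPR lines sit at medians of 2.62 and 2.34 times WT, as chosen, and at 48 HAF all 4 medians lie close to 0 on the log2 scale.

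Single libraries at 48 HAF were set against WT without a test. The median ratio to WT over the members was 1.03 in CR78, 1.13 in CR79, 1.0 in OE78 and 0.993 in OE79. At least 1.7 times the WT level was reached by 2 members in CR78 (0.727% of the 13073 genes), 10 in CR79 (4.69%), 2 in OE78 (1.51%) and 1 in OE79 (0.734%). At most the WT level divided by 1.7 was reached by 6 members in CR78 (0.474%), 3 in CR79 (2.65%), 6 in OE78 (2.68%) and 6 in OE79 (0.826%). The 13073 genes are not matched to the members in level, and ratios from fewer reads scatter more in both directions. At 48 HAF the members' median was 8.96 CPM in WT and 10.2 CPM in CR79, against 39.7 and 40.1 CPM over the 13073 genes. SSIIa, LOC_Os12g02040 and LOC_Os07g47620 were among the low members in CR78, OE78 and OE79, where WT had the highest level of the 5 lines. The 10 in CR79 included TPP3, at 2.07 times WT, and LOC_Os10g05750, at 23.2 CPM in CR79 and 9.90 CPM in WT. Both CRISPR lines lay above the other 3 at 48 HAF in 9 members (11.0% of the 13073 genes), among them TF1 and TPP3. They lay below the other 3 in 4 members (18.9%), which were AGPS2, SSIIa, LOC_Os07g11120 and LOC_Os10g27010. CR79 alone was the highest of the 5 lines in 19 members (30.4%) and CR78 in 6 (11.0%). LOC_Os06g07700 was uneven within both classes, with 12.1 and 5.14 CPM in CR78 and CR79, against 5.50, 15.4 and 3.91 CPM in OE78, OE79 and WT.

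A further count, made after these values had been seen, took genes at least 4 times as high at 72 as at 48 HAF in both overexpression lines. There were 49 such genes among the 13073, and 23 of them (46.9%) stood at 1.7 times WT or more in CR79 48 HAF, against none (0%) in CR78 48 HAF. Of the 9 members among them, 6 did so in CR79 and none in CR78. SSIIa, TF1 and LOC_Os02g32660 were the 3 that did not, at 0.453, 1.15 and 0.785 times WT in CR79.

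With time, the members were put in 3 groups by course, described here with no test since the 72 HAF values chose them. The 72 HAF level was at least 1.7 times the 48 HAF level in 49 members in CR78 and 47 in CR79, against 33 in OE78, 29 in OE79 and 32 in WT. Over the 13073 genes these shares were 6.95%, 5.37%, 5.51%, 4.32% and 5.19%. In 24 members the 72 HAF level was at least 1.7 times the 48 HAF level in all 5 lines (1.65% of the 13073 genes). Their median ratio of 72 to 48 HAF was 11.5 in CR78 and 10.3 in CR79, against 4.35 in OE78, 3.80 in OE79 and 4.37 in WT. SUS3, PPDKB, SSIIa, TPP3, TF1 and ADK-A were of this kind. The steepest in WT were LOC_Os10g05750, LOC_Os09g38340, SSIIa and TPP3, at 33.9, 22.2, 19.3 and 17.6. SSIIa reached ratios of 126 in CR78 and 89.2 in CR79, and had 39 to 92 reads at 48 HAF in every line.

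In 14 other members the ratio of 72 to 48 HAF stayed under 1.7 in OE78, OE79 and WT (91.5% of the 13073 genes). Their median was 2.94 in CR78 and 2.60 in CR79, against 0.913 in OE78, 1.16 in OE79 and 0.893 in WT. MET1b, LOC_Os07g11120, LOC_Os10g25130 and LOC_Os01g55540 were of this kind. In 4 of the 14, MET1b, LOC_Os02g03790, LOC_Os03g58890 and LOC_Os10g27010, all of OE78, OE79 and WT had less at 72 than at 48 HAF (32.0% of the 13073 genes). LOC_Os02g03790 had 19.1 and 16.1 CPM at 72 HAF in CR78 and CR79, against 4.81, 6.51 and 7.70 CPM in OE78, OE79 and WT, while at 48 HAF it had 15.4 and 12.6 CPM in CR78 and CR79 and 13.9 CPM in WT. LOC_Os03g58890 had 22.5 and 21.8 CPM at 72 HAF in CR78 and CR79, against 9.75, 12.4 and 9.31 CPM in OE78, OE79 and WT, and 10.4 to 24.1 CPM at 48 HAF. The remaining 15 members fitted neither group, among them AGPS2, SUT1, ROMT-17 and LOC_Os07g47620, whose WT level at 72 HAF was 0.487 times that at 48 HAF. The ratio of 72 to 48 HAF was higher in CR78 than in WT for 52 members (42.4% of the 13073 genes) and higher in CR79 than in WT for 47 (33.4%). The choice of members by their 72 HAF levels largely fixes these counts. LOC_Os06g07700 was the exception in CR78. The 6 in CR79 were LOC_Os10g05750, LOC_Os09g38340, LOC_Os01g07930, LOC_Os07g09814, LOC_Os04g49954 and LOC_Os02g30240, all of which had a CR79 level at 48 HAF of at least 1.7 times WT.

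**Figure D4:**
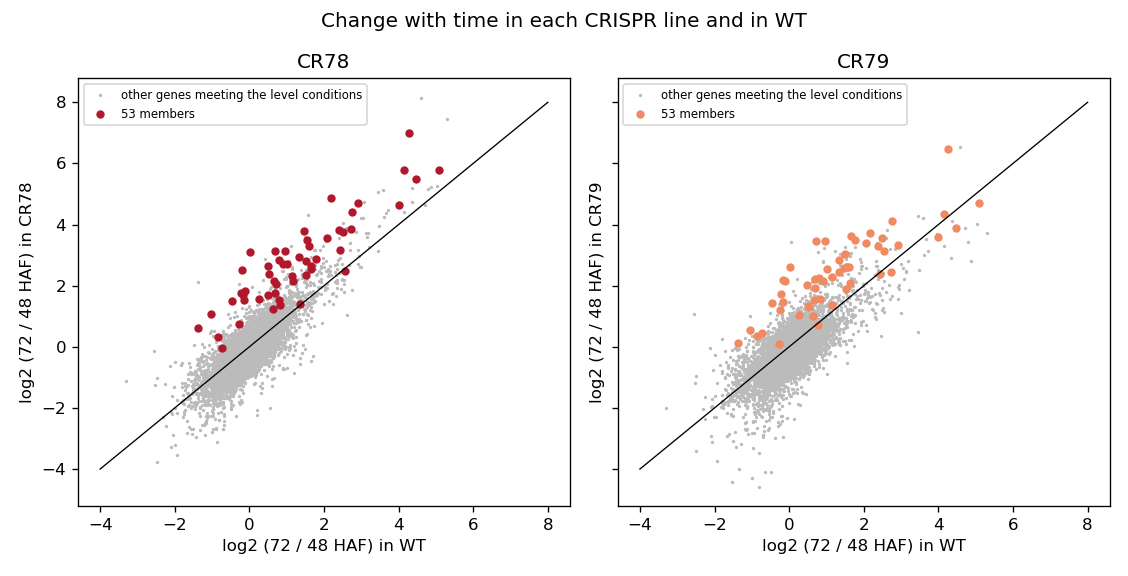
The log2 ratio of 72 to 48 HAF in CR78 (left) and CR79 (right) against the same ratio in WT, for the 53 members (coloured) and the other genes that met the same minimum levels (grey), with a line where both ratios are equal. Of the 53 members, 52 lie above the line in CR78 and 47 in CR79, which the choice of members largely fixes. In CR79 several of the steepest members in WT lie below the line.

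The members were spread over all 12 chromosomes, with 8 on chromosome 1 and 1 on chromosome 11. No pair had locus numbers within 50 of each other, and the closest were LOC_Os02g03710 and LOC_Os02g03790. LOC_Os12g02040 and LOC_Os11g02080 lie near the ends of chromosomes 12 and 11, which share a duplicated segment in rice. LOC_Os12g02040 had 74.7 and 53.3 CPM at 72 HAF in CR78 and CR79, against 16.4, 20.5 and 20.8 CPM in OE78, OE79 and WT. LOC_Os11g02080 had 89.3 and 54.8 CPM in CR78 and CR79, against 19.2, 28.0 and 27.9 CPM in OE78, OE79 and WT. If they are near-identical copies, their reads cannot be told apart in these counts.

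The starch synthesis list puts the 4 starch members in context. Of its 26 measured genes, 24 had the levels the rule asks for, and 4 were members. Both CRISPR libraries were above the other 3 at 72 HAF in 11 of the 26 and below them in 3, beside 14.3% above and 21.7% below among the 24091 genes. With no level asked for, 5 of the 26 passed the 1.7-fold limit, beside 1.90% of those genes. At 48 HAF both CRISPR libraries were above the other 3 in 3 of the 26 and below them in 7, beside 11.0% and 18.9% of the 13073 genes. The list was written with earlier results of these data known. BEI (LOC_Os06g51084), a branching enzyme, had 560 and 433 CPM at 72 HAF in CR78 and CR79, against 282, 257 and 260 CPM in OE78, OE79 and WT, under the limit of the rule. ISA1 (LOC_Os08g40930), a debranching enzyme, had 229 and 134 CPM in CR78 and CR79, against 71.6, 63.1 and 104 CPM in OE78, OE79 and WT. Wx (LOC_Os06g04200), the granule-bound starch synthase, had 618 and 492 CPM in CR78 and CR79, against 35.7, 75.8 and 115 CPM in OE78, OE79 and WT, but at most 0.299 CPM at 48 HAF, so it could not be a member. LOC_Os08g09230, on the list by its identifier alone, had 222 and 188 CPM in CR78 and CR79, against 101, 86.1 and 151 CPM in OE78, OE79 and WT, a ratio of 1.25. The named starch synthases SSI, SSIIb and SSIIc did not separate this way. SSI had 395 and 278 CPM in CR78 and CR79, against 386, 342 and 351 CPM in OE78, OE79 and WT. SSIIb had both CRISPR libraries below the other 3, at 46.8 and 40.6 CPM, against 71.5, 61.1 and 49.1 CPM in OE78, OE79 and WT. The median over the 24 genes of the ratio that the rule uses was 0.774, beside 0.804 over the 13073 genes.

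**Figure D5:**
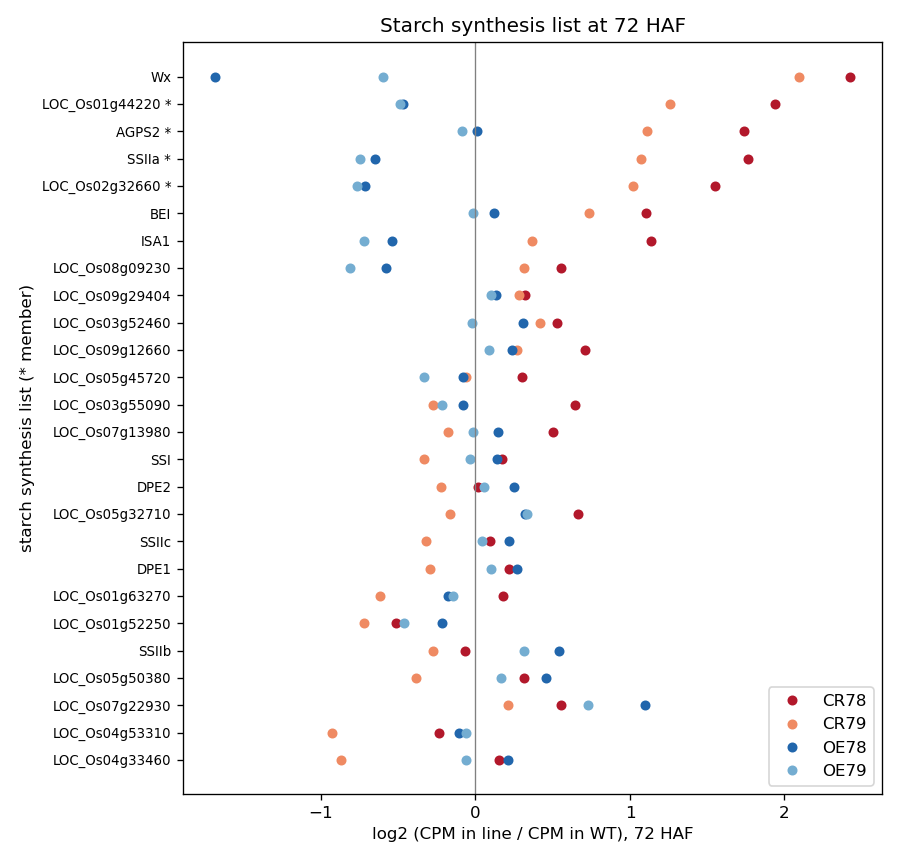
The log2 ratio of CPM to WT at 72 HAF for the 26 genes of the starch synthesis list (rows), with 1 point per line and an asterisk for the 4 members. Wx, the 4 members, BEI, ISA1 and LOC_Os08g09230 have CR78 and CR79 to the right of 0 with a clear gap to OE78 and OE79. In the lower rows the lines lie closer or mix, or CR78 and CR79 are the lowest, which holds for 3 genes, SSIIb among them.

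Of the genes with the levels the rule asks for, 2 of 14 of sucrose use and sugar transport were members, 2 of 4 of grain filling metabolism and 1 of 9 of chromatin, beside 0.405% of the 13073 genes. None came from the 17 other lists, of which 3 (storage proteins, type I MADS and alpha-amylase) had no gene with those levels. The 7 endosperm transcription factors summed to 299 and 213 CPM at 72 HAF in CR78 and CR79, against 78.7, 61.5 and 67.7 CPM in OE78, OE79 and WT, and both CRISPR libraries were above the other 3 in 6 of them, beside 14.3% of the 24091 genes. With no level asked for, 5 of the 7 passed the 1.7-fold limit, beside 1.90% of the 24091 genes. RSR1 (LOC_Os05g03040) was the one that did not separate, at 23.7 and 29.3 CPM in CR78 and CR79, against 25.4, 23.8 and 32.4 CPM in OE78, OE79 and WT. NF-YB1 (LOC_Os02g49410), one of them, had 12.9 and 10.9 CPM in CR78 and CR79, against 3.16, 4.30 and 4.60 CPM in OE78, OE79 and WT. The 8 storage protein genes summed to 46.5 and 147 CPM in CR78 and CR79, against 4.37, 3.32 and 5.27 CPM in OE78, OE79 and WT. With no level asked for, 4 of them passed the 1.7-fold limit, beside 1.90% of the 24091 genes. Of those 4, GluA3 had only 2.18 and 3.67 CPM in CR78 and CR79, and LOC_Os02g15090 only 1.73 and 1.06 CPM. The members themselves took 1.43% and 0.972% of all reads in CR78 and CR79 at 72 HAF, against 0.376%, 0.364% and 0.452% in OE78, OE79 and WT, and 0.140% to 0.148% in all 5 lines at 48 HAF. In whole seeds, a different share of a cell type and a different RNA amount per cell cannot be told apart.

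Markers of other tissues were read beside these values. At 48 HAF the 10 green pericarp genes summed to 6037 CPM in CR79 and 4083 CPM in CR78. In OE78, OE79 and WT they then summed to 3958, 4245 and 4526 CPM, so CR79 was the highest for this list. It was the lowest for the starch synthesis list at 48 HAF, at 6205 CPM against 6339 to 6741 CPM in the other lines. The 10 green pericarp genes summed to 8048 and 6769 CPM at 72 HAF in CR78 and CR79, against 8017, 7313 and 6758 CPM in OE78, OE79 and WT, and 0 of them had both CRISPR libraries above the other 3 while 2 had both below, beside 14.3% and 21.7% of the 24091 genes. The 2 were PORA, at 286 and 270 CPM in CR78 and CR79 against 558, 510 and 333 CPM in OE78, OE79 and WT, and PORB, at 145 and 111 CPM in CR78 and CR79 against 173, 153 and 166 CPM in OE78, OE79 and WT. The 6 embryo and meristem genes summed to 186 and 127 CPM in CR78 and CR79, against 179, 183 and 190 CPM in OE78, OE79 and WT, most of it from ROC1, at 166 and 114 CPM in CR78 and CR79 against 168, 164 and 175 CPM in OE78, OE79 and WT. Both CRISPR libraries were above the other 3 in 1 and below them in 2 of the 5 genes with 1 CPM or more in some 72 HAF library. LOC_Os01g62310 had 13.4 and 8.80 CPM in CR78 and CR79 against 3.04, 2.74 and 3.27 CPM in OE78, OE79 and WT. OSH1 had 2.12 and 1.47 CPM in CR78 and CR79, against 6.33, 12.7 and 8.26 CPM in OE78, OE79 and WT, and OSH15 was under 2 CPM in every line. The 6 anther and tapetum genes summed to 34.1 and 30.9 CPM in CR78 and CR79, against 43.5, 37.8 and 43.2 CPM in OE78, OE79 and WT. TDR and EAT1 of this list were at or under 0.190 CPM in every 72 HAF library, and UDT1 lay between 1.60 and 3.51 CPM, with CR78 lowest and CR79 highest. The 8 heat shock genes summed to 819 and 681 CPM at 72 HAF in CR78 and CR79, against 1106, 867 and 926 CPM in OE78, OE79 and WT. Of these 8, 5 had both CRISPR libraries below the other 3, beside 21.7% of the 24091 genes. The part of the endosperm and embryo genes in the members' levels was not tested.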

How the data were processed

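RNA of rice seeds was sequenced in 10 libraries, and the authors deposited raw counts, whole numbers of reads for each of 55801 features, with no normalization. Per the submitters' processing notes, TopHat2 and HTSeq were used, in versions not stated. The genome build, the annotation, any filter and the handling of strand are not given here. Totals ran from 12267337 to 18040600 reads, and these limit precision for low levels.

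CPM was the count times 1000000 over the file total. The 48 HAF contrast was fitted in edgeR 4.0.16 (R 4.3.3) with TMM scaling and genes kept at a minimum count of 10; the fit was tested on simulated data. DESeq2 1.42.0, other scalings and filters, and leaving out each library were tried. Members and lists were chosen with earlier results of these data known. Of 204 published name and identifier pairs, 128 passed a check within 2 Mb against the RefSeq table (assembly ASM3414082v1), 73 names were missing, 2 were contradicted and dropped, and 1 identifier was absent. None of the identifiers stands in that table, and no sequences are shown.

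Named members were those with a checked name, the 8 of highest mean CRISPR CPM at 72 HAF, the 8 of largest ratio, the 6 of smallest p at 48 HAF, the 3 on each side of the limit, the 4 of largest and of smallest ratio of 72 to 48 HAF in WT, and pairs of neighbours. Other members named to illustrate a count or a range were chosen after their values were seen.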

Additional observations from a re-analysis of the deposited data

How the results depend on the processing

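The number of members depended on the limits. It was 90 with a fold of 1.5, 25 with a fold of 2 and 164 with no minimum at 48 HAF. TMM-scaled totals, which shift log2 CPM by 0.116 in CR79 72 HAF and -0.129 in OE78 48 HAF and less elsewhere, gave 58, of which 51 were shared with the 53. A 72 HAF minimum of 5 or 20 CPM gave 65 or 40. Leaving out 1 library at 72 HAF gave 58 to 221, namely 221 without CR78, 118 without CR79, 75 without OE78, 58 without OE79 and 88 without WT, since fewer libraries then had to meet the rule. At 48 HAF, no alternative called a member. Over all genes, 0 were called with edgeR, 74 with DESeq2, 1 with no filter on low counts, 1 with 1 fit over all 10 libraries, and 0 to 2 when 1 library was left out (2 without OE79). Where that left 1 CRISPR library, it is assumed to vary like the others. The 6 members with the smallest p kept their sign in all 10 alternatives. Among these, leaving out WT and comparing with the overexpression lines alone are the same fit. The 6 were picked by p in these data, so a kept sign is not separate support. Of counts added after the data were seen, the TMM scaling gave 28 members with a 1.7-fold higher level at 72 HAF in all 5 lines, 12 without one in OE78, OE79 and WT, 34 with CR78 above CR79, and 9 at 1.7 times WT in CR79 48 HAF. With it, 28 of 57 genes of steep increase were at 1.7 times WT in CR79 48 HAF, and with a 3-fold limit 38 of 92. No paired analysis was possible because the tested contrast lies between lines at 48 HAF, and a block of line over both times absorbs it. The class by time term of such a fit rests on the 72 HAF values that chose the members. The fit over all 10 libraries had no block. Depth limits the members near 1 CPM at 48 HAF, such as LOC_Os06g35160 with 16 to 37 reads a library.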
